A study of Mus musculus with 20 samples.

Results

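Genes that write, maintain and remove DNA methylation were read across sorted states of mouse embryonic stem cells (ESC), pluripotent cells kept in culture. The members were the 9 genes whose symbol in the RNA-seq table was Dnmt1, Uhrf1, Dnmt3a, Dnmt3b, Dnmt3l, Tet1, Tet2, Tet3 or Tdg. All 9 were found, each once, among 29692 genes. State 3 was sorted as Nanog low and Sox2 low, state 2 as Nanog low and Sox2 high, and state 1 as Nanog high and Sox2 high. The total population was the 4th group, labelled with no level of either factor. The medium of every group held 10% fetal bovine serum and leukemia inhibitory factor, and the labels give no strain, clone, reporter or genotype. RNA-seq after rRNA depletion had 3 libraries per group (replicates A, B and C), and small RNA-seq had 2 other libraries per group (replicates D and E).

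Methylation of cytosine in CpG pairs is copied after replication by Dnmt1, which Uhrf1 brings to hemimethylated DNA. Dnmt3a and Dnmt3b set new marks, and Dnmt3l, which has no methyltransferase activity of its own, stimulates them. The Tet dioxygenases oxidise 5-methylcytosine to 5-hydroxymethylcytosine and further, and Tdg cuts out the most oxidised bases for repair. Mouse ESC are known for high Tet1 and Tet2, and the step towards the epiblast of the implanted embryo for a rise of Dnmt3 enzymes and of DNA methylation.

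The RNA-seq table gives 1 normalized value per gene and group, with no value per library, so no SD can be printed. A difference between a pair of groups was called where the authors' deposited table gives a probability of 0.95 or more, summed here over all patterns of groups that set the pair apart. Those patterns come from an EBSeq model of the libraries. Whether the libraries came from separate cultures is not given, so the probabilities may measure technical spread. About 46.9 to 57.7 M reads stand behind an RNA-seq column and 5.85 to 10.2 M behind a small RNA column. Nanog had 440.0 in state 3, 743 in state 2, 4145 in state 1 and 2783 in the total population, and Sox2 had 1306, 3167, 4155 and 3954.5 in the same order, which follows the labels. Pou5f1, the gene of Oct4 and 1 of 10 ESC markers listed, had 9826 in state 3, 10275 in state 2, 13810.4 in state 1 and 12174 in the total population. It was not called between the states (probability of 0.931 for state 3 against state 1, summed from the authors' deposited table). Most other ESC markers fell. Over all 10, Nanog and Sox2 included, the sums were 21907 in state 3, 34315 in state 2, 66142 in state 1 and 53613 in the total population. Of the 10, 8 were called lower in state 3 than in state 1 and 0 higher, where 9.01% of all genes were called lower.

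Markers of other cell types moved with the states. Summed over 10 primitive endoderm markers the values were 8355 in state 3, 3076 in state 2, 1745 in state 1 and 2175 in the total population, and 7 of the 10 were called higher in state 3 than in state 1. Without Lama1, the marker with the highest state 1 value, the sums were 6746, 2166, 417 and 1001 in that order. Col4a1 held most of the state 3 sum, with 5754 in state 3, 1767 in state 2, 277 in state 1 and 779 in the total population. The sums over 10 trophectoderm markers were 2124, 957.5, 1039 and 1066 in that order (8 of 10 higher in state 3 than in state 1, Tfap2c lower, Elf5 at 0 in state 2). Tfap2c held most of that sum in state 1, and without it the sums were 1854 in state 3, 395 in state 2, 88.5 in state 1 and 276 in the total population. The sums over 11 fibroblast markers were 5450.0, 1350.0, 227.6 and 799.1 (5 of 11 higher in state 3 than in state 1, with Dcn and Lum each at 0 in a group). Tagln held most of the state 3 sum, with 3445 there and 70.2 in state 1. Dcn (12.4 in state 3) and Lum (1.46 in state 3) were not called between the states. The sums over 10 mesoderm and streak markers were 661, 221, 611 and 495 (4 higher in state 3 than in state 1, Bmp4 lower, Hand2 at 0 in state 2 and in state 1). Without Bmp4 the mesoderm and streak sums were 506 in state 3, 118 in state 2, 42.2 in state 1 and 81.1 in the total population. Each marker left out here was chosen by its high state 1 value, which lowers the state 1 sum most. The part of other cell types in the results below was not tested. In such bulk samples, fewer cells of a type and less RNA per cell cannot be told apart.

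Between state 2 and state 1, 7 of the 9 genes were called, 4 higher (Dnmt3b, Dnmt3l, Tet3 and Tdg) and 3 lower (Dnmt1, Tet1 and Tet2). Of all 29692 genes 13.4% were called in this comparison, 7.11% higher and 6.33% lower, and of the 3031 genes at least as abundant as Tet3, the least abundant member, 30.4%. Between state 3 and state 2, 4 of 9 were called, Tet3 higher and Dnmt3l, Tet1 and Tet2 lower, against 8.59% of all genes (5.41% higher and 3.19% lower) and 18.5% of the abundant ones. Between state 3 and state 1, 6 of 9 were called, Dnmt3b, Tet3 and Tdg higher and Dnmt1, Tet1 and Tet2 lower, against 20.4% of all genes (11.4% higher and 9.01% lower) and 43.2% of the abundant ones. The median log2 ratio of the 9 genes was 0.30, -0.13 and -0.05 in these comparisons, and that of all genes 0.00 in each. The 3 comparisons share groups and are not independent of each other. Ratios are log2((value + 1)/(value + 1)).

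**Figure D1:**
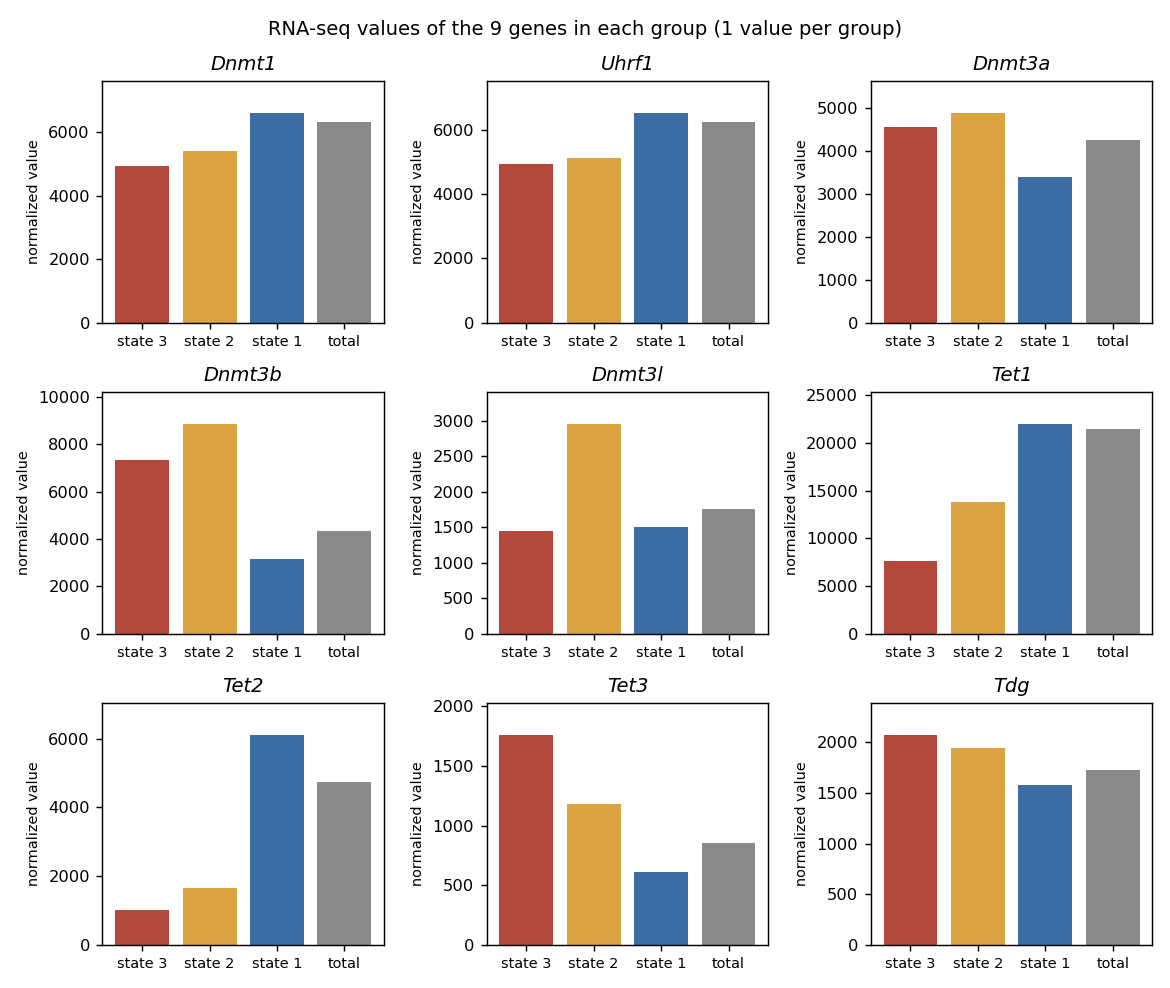
Normalized RNA-seq value (linear axis from 0, 1 value per group, no error bar because values per library are not given) of each of the 9 genes in state 3, state 2, state 1 and the total population. Tet1 and Tet2 are lowest in state 3 and highest in state 1, Tet3 runs the other way, and Dnmt3l is highest in state 2.

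Dnmt1 was lower in both Nanog-low states than in state 1, and Uhrf1 had like ratios without a call. Dnmt1, the maintenance methyltransferase (ENSMUSG00000004099.16; chromosome 9, 20907206 to 20959888 in GRCm38), had 4937 in state 3, 5411 in state 2, 6613 in state 1 and 6305 in the total population. It fell in state 2 against state 1 (log2 -0.29) and in state 3 against state 1 (log2 -0.42), and state 3 against state 2 was not called (log2 -0.13, probability 0.113 summed from the authors' deposited table). Uhrf1, the reader of hemimethylated CpG (ENSMUSG00000001228.14; chromosome 17, 56303337 to 56323486), had 4946 in state 3, 5140.2 in state 2, 6554 in state 1 and 6261 in the total population. Its differences from state 1 were close to those of Dnmt1 (log2 -0.35 for state 2 and -0.41 for state 3), but the probabilities summed from the authors' deposited table, 0.905 and 0.911, missed the threshold. The ratio of Uhrf1 to Dnmt1 values stayed between 0.95 in state 2 and 1.00 in state 3. Of all pairs among the 9 genes, these had the nearest profiles, with a distance of 0.059 over the 4 group values on a centred log2 scale, and the next pair, Dnmt3a and Tdg, had 0.20.

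Some genes of DNA replication fell as well. Of 15 S-phase genes 5 fell and 0 rose in state 2 against state 1 (median log2 -0.20), and 6 fell and 0 rose in state 3 against state 1 (median -0.23). These shares of the list lie near the 30.4% and 43.2% of abundant genes called in the same comparisons. Mcm6, a subunit of the replicative helicase, had 6687.5 in state 3, 7252 in state 2, 9301 in state 1 and 9018 in the total population. Cdt1, which licenses replication origins, had 2129 in state 3, 2526 in state 2, 3847 in state 1 and 3077 in the total population. Whether the share of cycling cells has a part in the Dnmt1 values was not tested.

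The promoters of the maintenance pair are shown because both hold a match to TTTNGCGC, a core of sites for E2F factors, which drive S-phase genes. RefSeq promoter windows (GRCm38.p6, 250 bases before to 50 after a start) matched all 9 genes, with 16 windows in all. Searched on both strands, this motif was found in 2 of the 16 windows and in 1.38% of all 32851 windows. The windows lie at chr9:20952574-20952873, minus strand (the last of 3 Dnmt1 windows) and at chr17:56304063-56304362, plus strand (the last of 2 Uhrf1 windows), and capitals mark the matches.
Dnmt1: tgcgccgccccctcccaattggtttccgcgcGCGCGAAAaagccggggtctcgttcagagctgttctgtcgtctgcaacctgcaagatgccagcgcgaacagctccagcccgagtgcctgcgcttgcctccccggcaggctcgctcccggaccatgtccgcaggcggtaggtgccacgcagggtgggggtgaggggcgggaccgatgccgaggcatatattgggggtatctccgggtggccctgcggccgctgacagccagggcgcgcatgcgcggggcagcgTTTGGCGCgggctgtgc
Uhrf1: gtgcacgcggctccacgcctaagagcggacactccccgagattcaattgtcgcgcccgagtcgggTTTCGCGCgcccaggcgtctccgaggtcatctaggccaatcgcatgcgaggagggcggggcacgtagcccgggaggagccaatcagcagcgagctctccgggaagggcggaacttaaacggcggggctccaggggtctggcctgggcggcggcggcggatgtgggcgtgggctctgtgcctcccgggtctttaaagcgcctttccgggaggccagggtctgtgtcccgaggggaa
The Dnmt1 window holds 2 matches and the Uhrf1 window 1, and the motif itself holds a CpG. The values are per gene and do not say which start was used. The octamer ATTTGCAT of Oct4 (1.74% of all windows) and the letters AAGGTCA of Esrrb (4.72%) were in none of the 16 windows, and the GC box GGGCGG, which itself holds a CpG, was in 12 of the 16 and in 35.7% of all windows.

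The de novo enzymes did not move as a block. Dnmt3b (ENSMUSG00000027478.15; chromosome 2, 153649411 to 153687730), the de novo methyltransferase of the early epiblast, had 7342 in state 3, 8874 in state 2, 3139 in state 1 and 4339.6 in the total population. It was 2.83-fold higher in state 2 than in state 1 and 2.34-fold higher in state 3 than in state 1 (log2 1.23), both called, while state 3 against state 2 was not called (log2 -0.27, probability 0.240 summed from the authors' deposited table). Both Nanog-low states thus lay above state 1 and above the total population. Dnmt3c, a close copy of Dnmt3b used in male germ cells, was near absent, with values of 0 in state 3, 0.61 in state 2, 0.34 in state 1 and 0.35 in the total population. How reads common to both copies were divided is not given.

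Dnmt3l (ENSMUSG00000000730.13; chromosome 10, 78042287 to 78063622), the cofactor without catalytic activity, was called higher in state 2 than in every other group. It had 1449.8 in state 3, 2962 in state 2, 1505 in state 1 and 1753 in the total population. It was called higher in state 2 than in state 1 (log2 0.98) and lower in state 3 than in state 2 (log2 -1.03). State 3 and state 1 were not called apart (log2 -0.05), and the most probable pattern in the authors' deposited table, with 0.757, sets state 2 apart from equal other groups.

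Dnmt3a (ENSMUSG00000020661.15; chromosome 12, 3801559 to 3914443), the de novo enzyme that many later tissues use, had 4560.2 in state 3, 4886 in state 2, 3383 in state 1 and 4241 in the total population. Its ratio of state 2 to state 1 was 1.44 (log2 0.53), larger than that of the called genes Dnmt1 and Tdg. The authors' deposited table nevertheless gives a probability of 0.933 that all 4 groups are equal, so Dnmt3a was not called in any comparison. The ratio of Dnmt3b to Dnmt3a values, in which transcript lengths cancel between groups, was 1.61 in state 3, 1.82 in state 2, 0.928 in state 1 and 1.02 in the total population. The ratio of Dnmt3l to Dnmt3a values was 0.318 in state 3, 0.606 in state 2, 0.445 in state 1 and 0.413 in the total population.

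**Figure D2:**
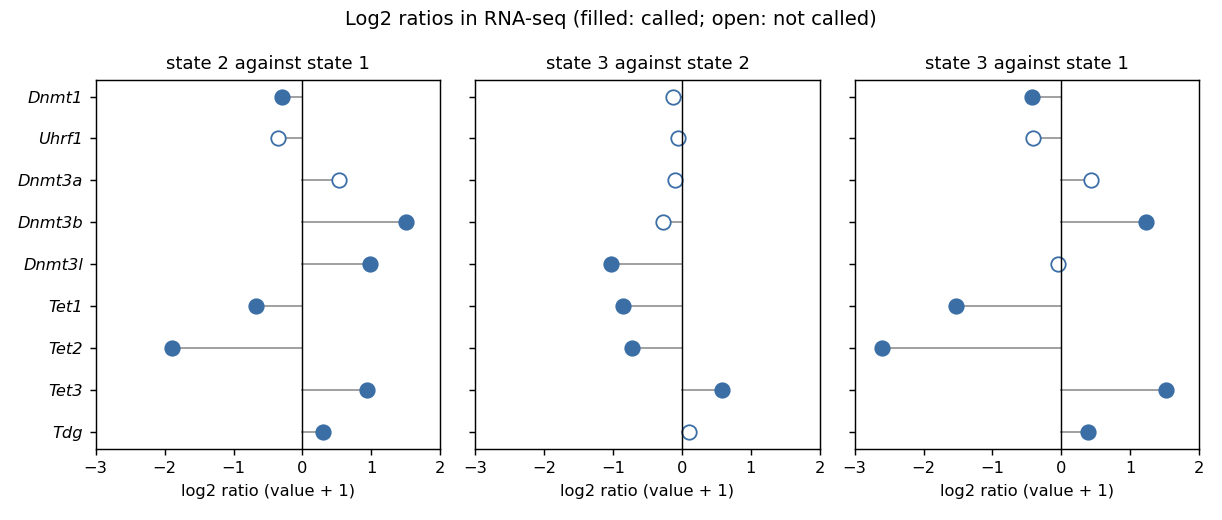
Log2 ratio of value + 1 (x axis) of each of the 9 genes in the 3 comparisons between states (panels, each named by its pair); filled circles were called at a probability of at least 0.95 and open circles were not. Dnmt3l stands at 0.98, -1.03 and -0.05 across the panels, while Tet1 and Tet2 are left of 0 and Tet3 right of 0 in each.

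The Tet enzymes parted from each other. Tet1 (ENSMUSG00000047146.16; chromosome 10, 62804570 to 62887469), the main dioxygenase of ESC together with Tet2, had 7625 in state 3, 13765 in state 2, 22009.6 in state 1 and 21438 in the total population. Every step between the states was called lower, with log2 ratios of -0.68 for state 2 over state 1, -0.85 for state 3 over state 2 and -1.53 for state 3 over state 1. Tet2 (ENSMUSG00000040943.12; chromosome 3, 133463677 to 133545136) had 1003.5 in state 3, 1652 in state 2, 6108 in state 1 and 4742 in the total population. It fell the most of the 9 genes in state 2 against state 1 (log2 -1.89) and in state 3 against state 1 (log2 -2.60). In state 3 against state 2 it fell as well (log2 -0.72), by less than Dnmt3l and Tet1. The state 1 value was 6.09 times the state 3 value for Tet2 and 2.89 times for Tet1.

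Tet3 (ENSMUSG00000034832.15; chromosome 6, 83362373 to 83457208), the dioxygenase of the zygote and of many differentiated cells, ran the other way. It had 1762 in state 3, 1180.4 in state 2, 614 in state 1 and 851 in the total population, and was called higher at each step (log2 0.94 for state 2 over state 1, 0.58 for state 3 over state 2 and 1.52 for state 3 over state 1). The ratio of Tet1 to Tet3 values was 4.33 in state 3, 11.7 in state 2, 35.9 in state 1 and 25.2 in the total population. The ratio of Tet2 to Tet3 values was 0.57 in state 3, 1.40 in state 2, 9.96 in state 1 and 5.57 in the total population. On the log2 scale state 2 had passed 44.3% of the way between state 1 and state 3 for Tet1, 72.4% for Tet2 and 62.0% for Tet3.

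Promoter windows of Tet2, Dnmt3b and Dnmt3l are shown because these genes changed most between state 2 and state 1 and differ in their count of CpG, the dinucleotide that carries most DNA methylation. The Tet2 window (chr3:133544341-133544640, minus strand) holds 57 CpG, more than 99.8% of all windows. The Dnmt3b window (chr2:153649199-153649498, plus strand) holds 30 (more than 88.3%), and the first of 3 Dnmt3l windows (chr10:78042037-78042336, plus strand) holds 6 (more than 43.6%). The median of all windows is 7, and capitals mark each CpG.
Tet2: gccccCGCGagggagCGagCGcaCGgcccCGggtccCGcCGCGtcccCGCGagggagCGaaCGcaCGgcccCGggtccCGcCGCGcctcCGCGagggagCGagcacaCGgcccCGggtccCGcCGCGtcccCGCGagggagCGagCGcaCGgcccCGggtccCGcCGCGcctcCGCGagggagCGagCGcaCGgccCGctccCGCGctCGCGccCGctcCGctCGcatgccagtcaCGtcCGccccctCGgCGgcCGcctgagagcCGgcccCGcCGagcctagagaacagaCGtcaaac
Dnmt3b: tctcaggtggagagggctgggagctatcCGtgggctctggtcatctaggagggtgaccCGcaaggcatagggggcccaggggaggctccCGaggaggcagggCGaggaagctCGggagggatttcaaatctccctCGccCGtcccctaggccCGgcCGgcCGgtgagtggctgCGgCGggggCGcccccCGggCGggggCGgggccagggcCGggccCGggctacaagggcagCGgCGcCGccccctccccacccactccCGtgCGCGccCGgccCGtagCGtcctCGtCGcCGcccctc
Dnmt3l: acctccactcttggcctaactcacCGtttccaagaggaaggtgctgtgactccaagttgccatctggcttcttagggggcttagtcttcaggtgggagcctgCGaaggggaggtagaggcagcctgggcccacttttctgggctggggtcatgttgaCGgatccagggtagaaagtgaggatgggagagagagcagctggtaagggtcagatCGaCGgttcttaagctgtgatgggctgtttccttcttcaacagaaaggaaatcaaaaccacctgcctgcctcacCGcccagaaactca
The other Dnmt3l windows hold 4 and 3 CpG, and the Tet1 and Tet3 windows 17 and 22.

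Tdg (ENSMUSG00000034674.18; chromosome 10, 82629814 to 82650799), the glycosylase downstream of the Tet enzymes, changed little but was called. It had 2075 in state 3, 1942 in state 2, 1581 in state 1 and 1729 in the total population. It rose in state 2 against state 1 (log2 0.30) and in state 3 against state 1 (log2 0.39), and state 3 against state 2 was not called (log2 0.10). The pseudogene Tdg-ps, with 41.2 in state 3, 39.7 in state 2, 31.6 in state 1 and 39.6 in the total population, may share reads with it, and its total is small beside that of Tdg.

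Against the total population the sorted states differed in how many members were called. State 3 had 6 of 9 called (3 higher, 3 lower), against 19.1% of all genes (10.8% higher and 8.32% lower) and 40.4% of the abundant ones, and state 2 had 7 of 9 (4 higher, 3 lower), against 11.1% of all genes (5.82% higher and 5.30% lower) and 25.7% of the abundant ones. In each case these were the genes called against state 1. State 1 had 0 of 9 called, where 1.98% of all genes (0.707% higher and 1.27% lower) and 5.25% of the abundant ones were. Tet3 and Dnmt3b came nearest, with log2 ratios of -0.47 each in state 1 against the total population and probabilities of 0.945 and 0.938 summed from the authors' deposited table. The value of the total population lay between those of state 2 and state 1 for each of the 9 genes.

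The small RNA libraries, made from other replicates, also held reads that map to these genes. These are not small RNA genes. The reads' strand and position in the gene are not given, and the counts are low, so each value is given with its 95% Poisson interval, which covers counting error only. Tet2 had 6.08 (3.44 to 9.46) in state 3, 10.3 (6.61 to 15.3) in state 2, 42.1 (33.6 to 52.1) in state 1 and 27.4 (19.7 to 37.8) in the total population. Dnmt3b had 57.3 (48.9 to 66.8) in state 3, 83.1 (71.7 to 95.5) in state 2, 23.95 (17.7 to 31.9) in state 1 and 30.7 (22.1 to 41.1) in the total population. Dnmt3l had 15.2 (11.1 to 20.5) in state 3, 32.9 (25.7 to 40.9) in state 2, 8.97 (5.35 to 14.3) in state 1 and 11.8 (7.03 to 19.3) in the total population. The state 2 intervals of Dnmt3l and of Dnmt3b, and the state 1 interval of Tet1, overlap with none of the same gene's others. In these libraries Tet1 was nevertheless called in no comparison, and Dnmt3b was not called in state 3 against state 2. Such a gap thus does not stand for a call. The share of all features with such a gap was not computed.

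By the same rule on the authors' deposited table of small RNA, 3 of the 9 genes were called in state 2 against state 1, where 0.696% of 26278 features were and 3.71% of the 4364 features at least as abundant as the least abundant member. They were Tet2 (log2 -1.93), Dnmt3b (log2 1.75) and Dnmt3l (log2 1.76), each in its RNA-seq direction. In state 3 against state 2 Dnmt3l was the 1 member called (log2 -1.06), against 0.970% of features and 5.34% of the abundant ones. In state 3 against state 1 Tet2 (log2 -2.61) and Dnmt3b (log2 1.23) were called, against 1.63% of features and 8.87% of the abundant ones. Against the total population 2 members were called in state 3 (1.38% and 7.38%), 3 in state 2 (0.563% and 2.96%) and 0 in state 1 (0.194% and 0.917%). Of the 7 genes called in RNA-seq between state 2 and state 1, these 3 were thus called again, and in the same direction.

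For the other members the fragments gave no call. Tet3 had 15.4 (11.1 to 20.5) in state 3, 5.08 (2.66 to 9.01) in state 2, 5.29 (2.75 to 9.87) in state 1 and 9.95 (5.43 to 16.7) in the total population, with a probability of 0.568 for state 3 against state 1 summed from the authors' deposited table. Tet1 had 103 (91.5 to 115) in state 3, 92.7 (80.9 to 106) in state 2, 161 (144 to 180) in state 1 and 86.4 (71.9 to 103) in the total population. Its state 3 value was not below that of state 2, and the total population lay further below state 1 than in RNA-seq, a difference called in neither table. Dnmt3a had 37.8 (31.1 to 45.7) in state 3, 36.6 (29.2 to 45.2) in state 2, 18.2 (12.6 to 25) in state 1 and 33.3 (24.5 to 44.4) in the total population. Dnmt1 had 39.3 in state 3, 21.7 in state 2, 35.4 in state 1 and 37.6 in the total population, and Uhrf1 had 32.0, 36.9, 42.5 and 27.5 in that order. Tdg had 27.2 in state 3, 27.0 in state 2, 17.1 in state 1 and 22.7 in the total population. Of those 7 RNA-seq calls between state 2 and state 1, 6 had the same sign in the fragments, and Tet3 had the opposite one (log2 -0.05). The same sign was found for 3 of 4 calls in state 3 against state 2 (Tet1 opposite) and 5 of 6 in state 3 against state 1 (Dnmt1 opposite). Against the total population it was found for 5 of 7 in state 2 (Tet1 and Tet3 opposite) and 4 of 6 in state 3 (Dnmt1 and Tet1 opposite).

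**Figure D3:**
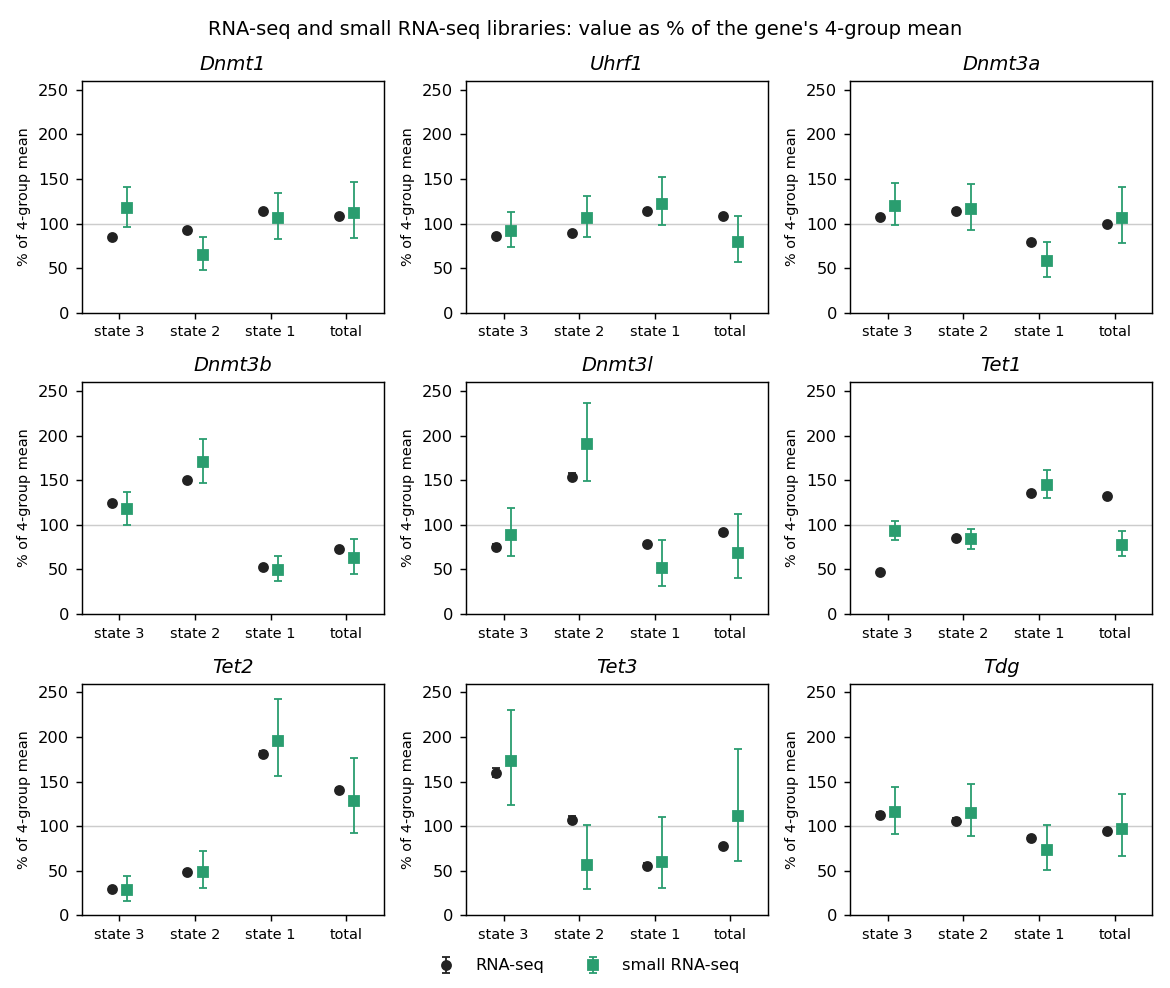
Value of each gene in each group as a percentage of its mean over the 4 groups, in RNA-seq (circles) and in the small RNA libraries (squares); bars are 95% Poisson intervals from the estimated reads, for counting error only. Both kinds of library place Tet2 highest in state 1 and Dnmt3b and Dnmt3l highest in state 2. Differences between them include Tet1 in state 3 and in the total population, Dnmt1 in states 2 and 3, and Tet3 in state 2.

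Partners of the methylation enzymes were read from lists. In the 3 comparisons 13.4%, 8.59% and 20.4% of all genes were called, and 30.4%, 18.5% and 43.2% of those at least as abundant as Tet3. Many listed genes are less abundant than Tet3, so the second set of shares is high for them. Of 7 maintenance cofactors, 2 rose and 3 fell in state 2 against state 1, and in state 3 against state 1 the counts were again 2 and 3. With state 1 and the total population exchanged in the pattern order, 0 rose and 3 fell in state 2 against state 1. Usp7, which stabilises Dnmt1 and Uhrf1, had 6352 in state 3, 8029 in state 2, 9698 in state 1 and 9289.7 in the total population, and Uhrf2, a paralog of Uhrf1, had 1055, 809, 702 and 724 in that order (called higher in state 3 than in state 1, log2 0.59). Cdca7, which recruits the remodeller Hells, had a log2 ratio of -0.48 in state 3 against state 1 and was called, while its relative Cdca7l peaked in state 2 (474 in state 3, 599 in state 2, 503 in state 1). Of 10 methyl-CpG readers 2 rose between state 2 and state 1, 2 between state 3 and state 2 and 3 between state 3 and state 1, and 0 fell. Mbd2, which recruits the NuRD complex to methylated DNA, had 359 in state 3, 293 in state 2 and 240 in state 1 (log2 0.58, state 3 against state 1), the reader Zbtb4 66.9, 38.5 and 24.9, and Zbtb33, also called Kaiso, 329, 373 and 246.

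Proteins that keep methylation on imprints and retroelements fell or were not called. Of 10 genes 4 fell in state 2 against state 1 and 6 in state 3 against state 1, with 0 rises (medians of -0.16 and -0.32). Zfp57, the zinc finger protein that protects imprinted methylation, had 1014 in state 3, 1173 in state 2, 4718 in state 1 and 3391 in the total population (log2 -2.01 in state 2 against state 1). Its corepressor Trim28 had 18402 in state 3, 23162 in state 2, 33028 in state 1 and 29581 in the total population. Atf7ip, a partner of the histone methyltransferase Setdb1, and Morc3 had log2 ratios of -1.02 and -0.69 in state 3 against state 1 and were called.

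Genes around Tet oxidation and repair were mixed. Of 11 Tet partners and cofactor genes 2 rose and 3 fell in state 2 against state 1, and 1 rose and 4 fell in state 3 against state 1. Cxxc4, whose product binds Tet2 protein and lowers its level, had 30.9 in state 3, 16.4 in state 2, 1.94 in state 1 and 7.91 in the total population, the reverse of the order of Tet2 RNA. Cxxc4 was called higher in states 2 and 3 than in state 1, but state 3 against state 2 was not called. A link between the RNA values of Cxxc4 and Tet2 was not tested. Hmces, a protein that binds abasic sites in DNA, had 429 in state 3, 909.98 in state 2, 2719.95 in state 1 and 2137 in the total population. Idh2, which makes the Tet cofactor 2-oxoglutarate in mitochondria, had 534 in state 3, 413 in state 2, 1105 in state 1 and 862 in the total population. Wdr76 had a log2 ratio of -0.42 in state 3 against state 1 and was called.

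Of 15 genes listed under base excision repair, 1 rose and 3 fell in state 2 against state 1 and 2 rose and 4 fell in state 3 against state 1. Parp1, the sensor of strand breaks, had 8671 in state 3, 11476 in state 2, 16117 in state 1 and 14519 in the total population. Neil2, a DNA glycosylase, had 88.0 in state 3, 178 in state 2, 215 in state 1 and 185 in the total population. The genes that rose were Gadd45g (73.3 in state 3, 51.7 in state 2, 8.37 in state 1) and Gadd45b (332 in state 3, 173 in state 2, 161 in state 1), which belong to a stress-induced family. Of 10 genes listed around the supply and use of the methyl donor S-adenosylmethionine, 1 rose and 3 fell in state 3 against state 1. Mtr, methionine synthase, had a log2 ratio of -0.74, Mat2b -0.48 and Ahcyl1 0.35, all called.

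**Figure D4:**
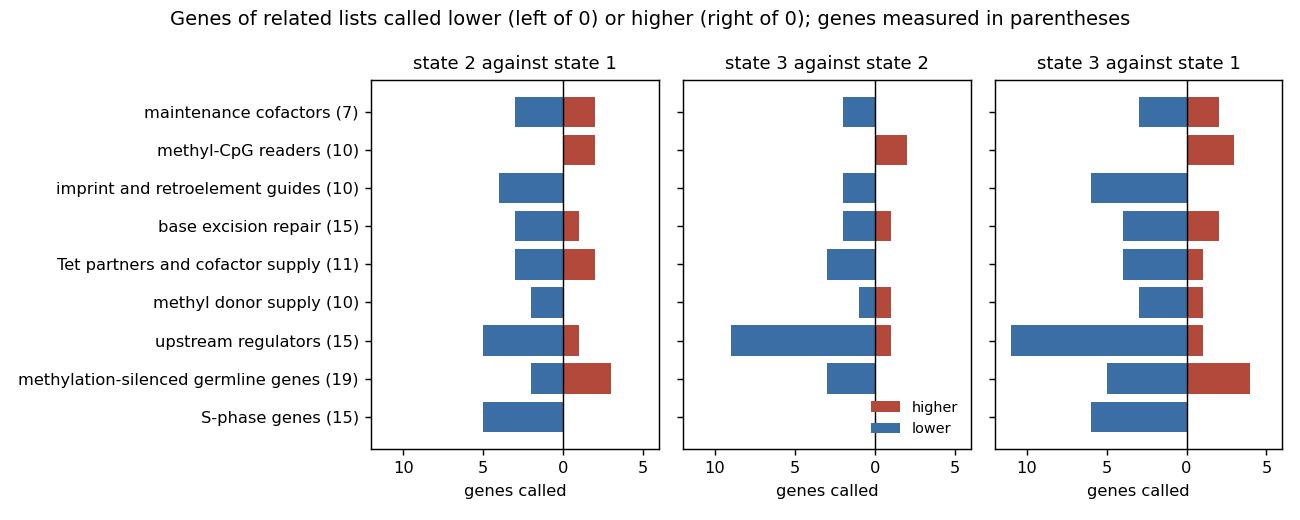
Number of genes called lower (bars left of 0) and higher (bars right of 0) in each of 9 related lists, with 1 panel for each pair of states; the number measured stands after each list name. The upstream regulators have 5, 9 and 11 genes lower, and the methyl-CpG readers have 0 genes lower in each panel.

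Genes listed as upstream regulators of the 9 were called lower more often than higher. Of 15 upstream regulators 5 fell and 1 rose between state 2 and state 1, 9 fell and 1 rose between state 3 and state 2, and 11 fell and 1 rose between state 3 and state 1 (median log2 -0.38, -0.76 and -0.79). Of all genes 6.33%, 3.19% and 9.01% were called lower in these comparisons, and 7.11%, 5.41% and 11.4% higher. The sorted gene Nanog is 1 of the 15 regulators, and their action on the 9 genes was not tested. Prdm14, a repressor of de novo methyltransferase genes in mouse ESC, had 19.2 in state 3, 67.8 in state 2, 347 in state 1 and 241 in the total population. Esrrb and Tfcp2l1, transcription factors of the naive network, had log2 ratios of -3.93 and -3.48 in state 3 against state 1. The riser was E2f6, a repressor of germline genes.

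Germline genes known as targets of silencing by promoter methylation gave no common direction in their calls. Their methylation was not measured here. Of 19 measured 3 rose and 2 fell between state 2 and state 1, 0 rose and 3 fell between state 3 and state 2, and 4 rose and 5 fell between state 3 and state 1, with medians of 0.39, -0.67 and -0.54. Of all genes 13.4%, 8.59% and 20.4% were called in these comparisons. Several of the 19 had few reads, such as Dpep3 (1.46 in state 3 and 2.58 in state 1) and Tex101 (4.43 and 2.90). For such genes a call is hard to reach, and their ratios weigh in the medians. Piwil2, a piRNA-binding Argonaute, had 143 in state 3, 278 in state 2, 489 in state 1 and 389.6 in the total population, and Rpl10l had 8.04, 20.7, 36.3 and 19.4 in that order. Tdrkh and Tdrd1, Tudor proteins of the piRNA pathway, ran the other way, with 166 and 192 in state 3, 103 and 177 in state 2, 50.8 and 80.0 in state 1 and 70.2 and 112 in the total population.

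Genes with the nearest profile to each member were sought among protein-coding genes with a mean of at least 100. Distance was measured over the 4 group values on the centred log2 scale. Dnmt3l had the most isolated profile, with 1 gene within 0.2, which was Fgf15 (137 in state 3, 268 in state 2, 152 in state 1 and 160.1 in the total population; distance 0.12), followed by Khdc3 (0.22) and Synm (0.23). Tet2 had 4 genes within 0.2, led by Ntn1 (0.085), Igsf21 (0.12) and Dlgap3 (0.18), and Dnmt3b had 8, led by Fam171b (0.098), Esrp1 (0.13) and Ank (0.14). Tet1 had 12, led by Sall1 (0.094), Dlc1 (0.13) and N4bp3 (0.13), and Tet3 had 67, led by Fjx1 (0.036), Hdgfl3 (0.066) and Abracl (0.073). Dnmt3a had 273 (Cul4b, Sil1 and Ncoa7 nearest), Tdg 1112 (Aco1, Pde4dip and Mbnl1), Uhrf1 1674 (Lig1, Zfp217 and Cdc37l1) and Dnmt1 1977 (Wdr33 and Uspl1 among the nearest). With 4 values per gene, nearness of flat profiles is common.

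MicroRNAs that were reported, in mouse or human cells, to target members were read in the small RNA table. Their mature forms are shown from RefSeq (GRCm38.p6) because the miR-26 and miR-148 hairpins named below fell, with miR-29a beside them as a form whose hairpin was not called. Capitals mark the seed (bases 2 to 8).
miR-26a-5p: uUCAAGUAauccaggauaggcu
miR-26b-5p: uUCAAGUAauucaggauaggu
miR-148a-3p: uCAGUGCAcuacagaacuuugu
miR-148b-3p: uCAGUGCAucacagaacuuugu
miR-29a-3p: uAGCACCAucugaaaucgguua
The miR-26 forms, reported to target Tet genes and Tdg, share the seed UCAAGUA. The miR-148 forms, reported to target DNMT1 and DNMT3B in human cells, share CAGUGCA, and miR-29a, reported to target Dnmt3 and Tet genes, has AGCACCA.

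Of 13 such hairpins measured, 4 fell between state 2 and state 1, 5 between state 3 and state 2 and 6 between state 3 and state 1, and 0 rose. Of all 605 hairpins 12.1%, 15.7% and 25.3% were called in the same comparisons, with 58, 91 and 136 lower and 15, 4 and 17 higher. The median log2 ratio was -0.58, -0.59 and -0.92 for the 13 and -0.37, -0.46 and -0.59 for all hairpins. The small RNA values sum to 2.61 M in state 3, 3.43 M in state 2, 5.13 M in state 1 and 4.15 M in the total population. Hairpin values were not rescaled to these sums, so a fall of a hairpin here may be part of that wider drop. The mir-26a-1 hairpin had 1414 in state 3, 4264 in state 2, 11854 in state 1 and 7772 in the total population, and mir-26a-2, which yields the same mature form and shares its reads, had 1483, 4405, 12249 and 8077. The mir-148a hairpin had 22488 in state 3, 55665 in state 2, 74649 in state 1 and 66914 in the total population, and was called lower in state 3 than in state 2 (log2 -1.31). The mir-148b hairpin had 2345 in state 3, 2349.95 in state 2, 4441 in state 1 and 3057 in the total population. The mir-143 hairpin, reported to target DNMT3A in human cells, had 105 in state 3, 223 in state 2, 493 in state 1 and 369 in the total population and was called lower in all 3 comparisons. The mir-29a hairpin was not called, with 44.7 in state 3, 67.7 in state 2, 65.4 in state 1 and 67.1 in the total population. Hairpin values do not separate the 2 arms.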

How the data were processed

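Per the labels' protocols, sorted mouse ESC gave 12 rRNA-depleted, dUTP strand-marked RNA-seq libraries and 8 small RNA libraries. The builds GRCm38 and mm10 and the tools RSEM 1.2.30 and STAR 2.4.1d stand in the submitters' processing notes, with no role. Per the file headers, the authors deposited 1 normalized signal for each gene or feature in a group. The scaling and merging of libraries are not given in the sources used here. The deposited score columns are probabilities of 15 patterns of equal and unequal groups. Their order was taken as that of EBSeq for the groups state 3, state 2, state 1 and total population. Among features with a pattern at 0.95 or more and a mean of at least 5, this order placed groups set equal closer than groups set apart in 94.4% of 1453 genes in RNA-seq and 93.8% of 161 in small RNA, where exchanging state 1 and total population, the next best order, gave 90.8% and 78.3%.

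Computed here were sums of pattern probabilities (called at 0.95), log2 ratios with a pseudocount of 1, and reads per group, estimated from the commonest low values of a column, for exact Poisson intervals (95%, counting error only). No count test was run, although one was planned for values per library, since each table holds 1 value per group. The summing step was checked on made-up pattern probabilities, with 200 of 29692 genes given known patterns that held nearly all the probability. All 152 pairs set apart between state 2 and state 1 were called, with 0 false calls, an outcome fixed by that setting. No counts were simulated, so this check does not measure the accuracy of the calls. The members and lists were chosen with earlier results of these data known. Named genes were all 9 members, up to 4 called genes with the largest log2 ratio per list, the 3 nearest profiles per member, and the sorted genes; the other genes named (Pou5f1, E2f6, Tdg-ps, Dnmt3c, microRNA hairpins and marker genes at 0) were chosen after their values were seen. Some genes that these rules select are not reported here. Sinhcaf, Asz1, Postn and mir-29b-2 were not analysed here. Coordinates are from RefSeq genes of GRCm38.p6, matched by symbol for 9 of 9 members. Python 3.11.15, pandas 2.3.3, numpy 2.4.6, scipy 1.17.1 and matplotlib 3.10.9 were used.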

Additional observations from a re-analysis of the deposited data

How the results depend on the processing

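At a threshold of 0.90, Uhrf1 was also called wherever a Nanog-low state was set against state 1 or the total population, and 2 members (Dnmt3b and Tet3, both lower) were called in state 1 against the total population, where 0 were at 0.95. At 0.99 the counts were as at 0.95. With a log2 ratio of at least 0.5 asked as well, 4 members were called in state 2 against the total population, where 7 were without it, 5 in state 2 against state 1 (7 without it), and 4 in state 3 against state 1 and against the total population (6 without it), and Dnmt1 and Tdg lost every call. Exchanging state 1 and the total population in the pattern order changed 0 of 54 calls in RNA-seq and 0 of 54 in small RNA. The exchange cannot change state 3 against state 2 or state 1 against the total population. For the other pairs it swaps the probability against state 1 with that against the total population, and the same members were called against both. Counts over the lists moved more. Of 42, 5 moved by over 1.5 times with this exchange, which cannot move those of state 3 against state 2, and 4 at 0.99. The maintenance cofactors in state 2 against state 1 had 5 calls, against 3 with the exchange and 2 at 0.99. Of 324 recomputed RNA-seq log2 ratios (54 under 6 other pseudocounts or scalings), 323 kept their sign. The small RNA ratios were not recomputed in this way. The exception was Tet1 in state 1 against the total population, which was not called and had -0.01 after division by the column total, against 0.04 as deposited. Values per library were not used, so leaving out each replicate was not run. No paired analysis was possible because the columns hold 1 merged value per group with no replicate. The share of genes called among those at least as abundant as Tet3, and the marker sums without the marker highest in state 1, were chosen after seeing the data.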

Other observations

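Other genes of the family gave these values. Trdmt1, also called Dnmt2, which methylates transfer RNA, had 115 in state 3, 112 in state 2, 112 in state 1 and 104 in the total population and was not called between any pair of groups, with probabilities of 0.018 or less summed from the authors' deposited table. The antisense gene Dnmt3bos had 1.07 in state 3, 1.72 in state 2, 0.97 in state 1 and 0.34 in the total population, and Dnmt3aos was at 0.36 in state 3, 0 in state 2, 0.32 in state 1 and 0 in the total population, all at a few reads per group.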
